A study of Homo sapiens with 12 samples.

Results

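The genes described here encode the secreted WNT ligands, their Frizzled receptors and the LRP co-receptors. The set was taken by name and comprised 31 genes, namely 19 WNT ligands, the Frizzled receptors FZD1 to FZD10, and LRP5 and LRP6, out of 20037 protein-coding genes with a single placement. CpGs were assigned to a gene when they lay between its RefSeq start and end on GRCh38.p14 or within 1500 bp on either side, and at least 5 CpGs were required. These spans held 6609 of 3689712 CpGs in the table of 5-methylcytosine (5mC) and 6509 of 3534314 in that of 5-hydroxymethylcytosine (5hmC). All 31 genes had enough CpGs over the whole span for both marks. The window at the transcription start could be measured in 29, since WNT5B and WNT8B had no CpG there. The gene body could be measured in 30, since WNT8A had fewer than 5 CpGs there.

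The cells were SV-HUC-1, a single human urothelial line immortalised with SV40, labelled as epithelial. They had been kept for 3 days with DCBQ, the chlorinated quinone 2,6-dichloro-1,4-benzoquinone formed in water disinfection, or with a blank solution as control. No label states the dose. Each condition had 3 reduced representation bisulfite libraries and 3 oxidative ones, 12 in all. The deposited tables give 3 control and 3 DCBQ values per CpG for each mark. The labels do not say whether replicates were separate cultures, so p-values here reflect only how these samples scatter, and that scatter may be technical. Of 10 urothelial and epithelial marker genes, 6 of the 8 measured had control start-window 5mC below 20%. This share is near that of all genes, 10988 of 15406. Of 5 fibroblast markers 3 were measured and 1 was below 20%, and of 6 leukocyte and endothelial markers 3 were measured and 0 were below.

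WNT proteins are lipid-modified secreted glycoproteins that bind the extracellular domain of Frizzled receptors. Together with LRP5 or LRP6 a bound Frizzled stabilises beta-catenin, which enters the nucleus and acts with TCF and LEF factors, whereas other pairings signal through planar polarity or calcium. In the bladder, WNT signals between stroma and basal urothelium are known from epithelial renewal after injury. 5mC at a CpG-rich promoter usually accompanies silence of the gene, whereas the bodies of many genes carry 5mC whether or not they are transcribed, and 5hmC is the oxidation product that TET enzymes make from 5mC.

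The promoters of these genes are rich in the CCGG sites at which reduced representation libraries are commonly cut. Among the 25 transcription starts that RefSeq lists for the members, 92% had CCGG (forward strand, which is its own reverse complement) within the 250 bases upstream, against 58.45% of 35116 listed starts of all genes, and the median number of CpGs in these bases was 26 against 11. The 250 bases upstream of 5 starts are printed because they span the range of levels in the set, from nearly unmethylated to nearly complete. They are from RefSeq on GRCh38.p14 and read 5′ to 3′ on the strand of the gene, ending at the base before the start, with each CpG measured for 5mC in capitals. FZD4, at chr11:86955396-86955645 on the minus strand, had 28 of 33 CpGs measured, all below 20% in controls. WNT10A, at chr2:218880602-218880851 on the plus strand, had 22 of 24 measured, between 0.77% and 13.3%. WNT3, at chr17:46818693-46818942 on the minus strand, had 17 of 26 measured, between 5.57% and 74.4%. WNT16, at chr7:121328750-121328999 on the plus strand, had 11 of 17 measured, between 20.3% and 72.1%. The downstream start of WNT5A, at chr3:55481399-55481648 on the minus strand, had 10 of 18 measured, between 49.8% and 100%, of which 8 reached 80%.
FZD4: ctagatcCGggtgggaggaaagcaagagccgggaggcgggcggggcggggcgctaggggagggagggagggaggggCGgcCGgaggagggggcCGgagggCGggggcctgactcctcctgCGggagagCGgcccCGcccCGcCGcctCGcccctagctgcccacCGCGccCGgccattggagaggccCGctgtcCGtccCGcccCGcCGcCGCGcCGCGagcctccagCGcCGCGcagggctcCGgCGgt
WNT10A: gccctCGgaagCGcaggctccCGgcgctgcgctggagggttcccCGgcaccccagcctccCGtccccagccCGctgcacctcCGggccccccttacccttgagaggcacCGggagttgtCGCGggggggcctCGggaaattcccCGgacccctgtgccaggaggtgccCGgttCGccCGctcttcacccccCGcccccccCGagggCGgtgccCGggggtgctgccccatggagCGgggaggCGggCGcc
WNT3: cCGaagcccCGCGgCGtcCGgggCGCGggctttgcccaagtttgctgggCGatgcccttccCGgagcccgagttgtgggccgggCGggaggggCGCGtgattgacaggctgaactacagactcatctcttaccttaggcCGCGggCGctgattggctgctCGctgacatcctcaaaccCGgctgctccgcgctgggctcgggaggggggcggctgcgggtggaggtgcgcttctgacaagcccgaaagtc
WNT16: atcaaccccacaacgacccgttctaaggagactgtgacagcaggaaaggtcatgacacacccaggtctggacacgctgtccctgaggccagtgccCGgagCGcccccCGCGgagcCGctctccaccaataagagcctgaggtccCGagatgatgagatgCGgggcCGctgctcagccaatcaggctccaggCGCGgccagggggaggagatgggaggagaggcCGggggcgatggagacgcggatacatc
WNT5A downstream start: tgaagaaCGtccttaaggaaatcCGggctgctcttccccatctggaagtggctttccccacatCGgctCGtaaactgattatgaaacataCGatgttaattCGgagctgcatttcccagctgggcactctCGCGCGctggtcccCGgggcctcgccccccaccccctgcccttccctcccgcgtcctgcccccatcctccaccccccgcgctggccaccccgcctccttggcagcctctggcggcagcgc

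In the untreated cells most of these genes carried little 5mC at their starts, and the receptors carried less than the ligands. The start window ran from 1500 bp before to 500 bp after the most upstream listed start. RefSeq's promoter table listed a start for 22 members. For the other 9 (WNT7B, WNT10B, WNT11, FZD2, FZD3, FZD6, FZD7, FZD10 and LRP6) the gene end with more measured CpGs stood in for it, and this end can be either end of a gene. The median control level over the 10 Frizzled receptors was 1.39% and 8 of them lay below 5%, as did 50.43% of the 15406 genes measured. Over the 17 measured ligands the median was 10.6%, 14 lay below 20%, and only WNT5A lay below 5%. Of all 15406 genes, 10988 lay below 20%. Over all 29 measured members the median was 6.87%, above the 4.82% of all genes, and 31.03% of members lay below 5%. The co-receptors LRP6 and LRP5 had 5.22% ± 0.29 and 6.51% ± 0.25 (SD, n = 3). The order of the medians was the same in all 6 samples: the ligand medians ranged from 9.95% to 11.2% and the Frizzled medians from 1.29% to 1.60%. This is a description of levels, since genes are not replicates and no test was made between the families. A stand-in gene end, chosen for its measured CpGs, was used for a larger share of Frizzled receptors than of measured ligands. The windows of the families were therefore not placed alike.

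**Figure D1:**
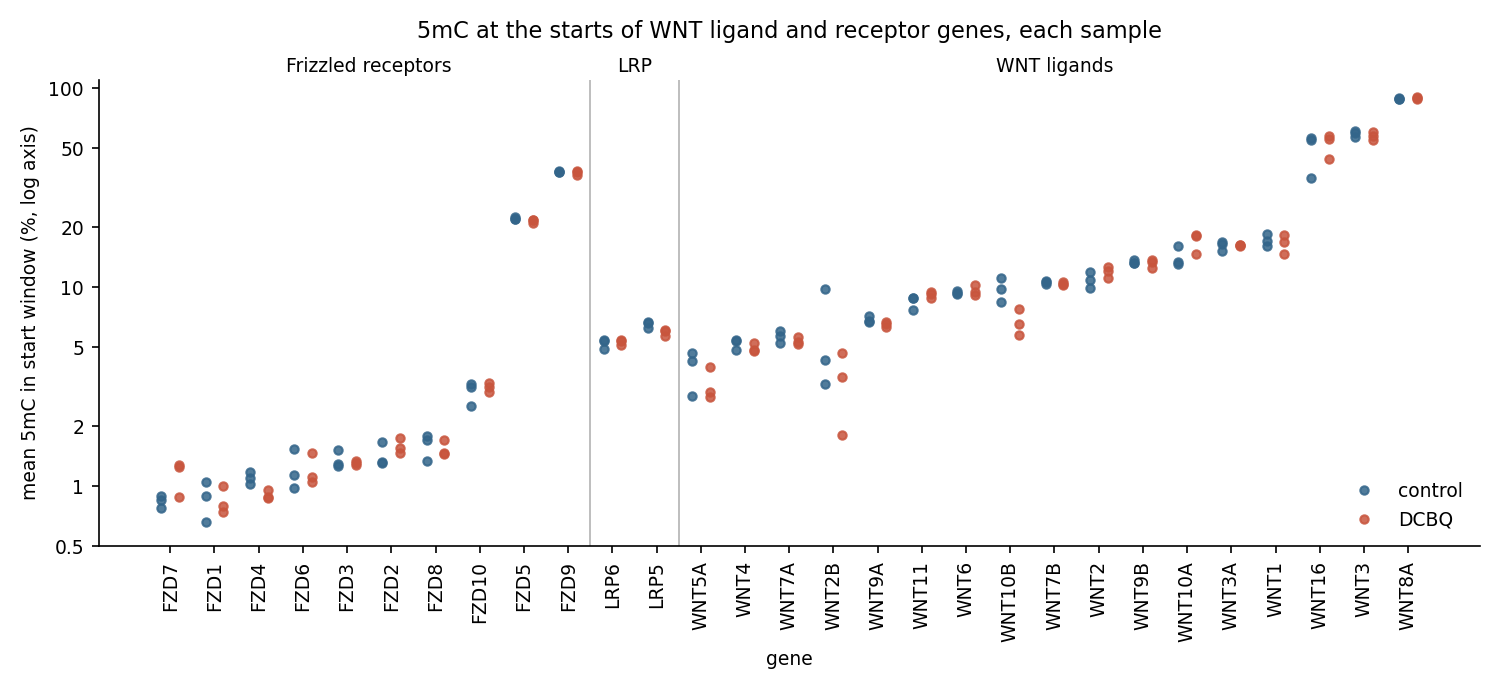
Mean 5mC of the start window (y axis, percent, log scale) for each member with measured CpGs (x axis), with each point 1 sample (blue, 3 control; red, 3 DCBQ) and genes ordered by control mean within each family. Most Frizzled receptors lie below 5% and most ligands between 3% and 20%, while WNT16, WNT3 and WNT8A stand higher in every sample.

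The lowest starts belonged to receptors. FZD7, a receptor of epithelial stem cells, had 0.895%, 0.851% and 0.774% in control samples 1 to 3 and 0.883%, 1.28% and 1.25% in DCBQ samples 1 to 3 over 113 CpGs. DCBQ samples 2 and 3 were above all controls while DCBQ1 lay among them, and the difference was 0.299 percentage points (SE 0.171, limma adjusted p = 0.835). FZD1 had 0.664%, 1.04% and 0.890% in controls and 0.739%, 0.799% and 1.0% in DCBQ over 70 CpGs, so that the groups overlapped. FZD4, which also serves Norrin in retinal vessels, had 1.03%, 1.10% and 1.18% in controls and 0.958%, 0.878% and 0.883% in DCBQ over 112 CpGs. Its DCBQ samples all lay below the controls, with a difference of -0.196 points (SE 0.142, limma adjusted p = 0.871). With each sample's mean over all CpGs subtracted the FZD4 difference was instead 0.220 points.

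The other members of the family followed a similar pattern at their promoters. FZD2, FZD3, FZD6 and FZD8 had control means of 1.43%, 1.36%, 1.22% and 1.61%, and FZD10 had 2.99% over 154 CpGs. FZD5 and FZD9 stood apart with window means of 22.2% ± 0.24 and 38.1% ± 0.23 (SD, n = 3). In both, the 250 bases before the start were low. These bases had 0.636%, 1.13% and 0.859% in the controls of FZD5 over 22 CpGs, while its 14 CpGs from 1000 to 500 bp upstream had 92.7%. In FZD9 they had 1.81%, 2.69% and 0.929% in controls over 7 CpGs, with 75.1% over 6 CpGs from 1000 to 500 bp upstream. Most CpGs of the FZD9 window, 59 of 75, lay in the first 500 bp after the start, where the level was 36.6%. Beyond the window it was 93.2% over the next 60 CpGs.

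From the start inward, most Frizzled genes changed from unmethylated to methylated within a short distance. Their median control level by 500 bp bin was 1.13% in the bin before the start, 1.27% in the one after it, 1.84% from 500 to 1000 bp, 26.9% from 1000 to 1500 bp and 90.9% from 1500 to 2000 bp, over 7 to 10 genes per bin. The first bin with at least 3 CpGs and a mean of at least 80% began 500 bp from the start in FZD9, 1000 bp in FZD2 and FZD10, 1500 bp in FZD1, FZD4, FZD5 and FZD7, and 2500 bp in FZD8. FZD8 still had 8.29% from 1500 to 2000 bp. FZD3 and FZD6 had no CpG measured from 1000 to 5000 bp, so they do not enter the later medians. Several of these genes hold their whole coding sequence in an uninterrupted exon. Among ligands the first bin of at least 80% lay at 1000 bp in WNT10A and WNT10B, 3000 bp in WNT4 and WNT5A, 4000 bp in WNT7B and 4500 bp in WNT7A, and it lay at 4000 bp in LRP5. The remaining ligands and LRP6 had no such bin up to 5000 bp, but many were sparsely measured there. WNT2, WNT2B, WNT8A and WNT8B had no CpG measured past the start in this range. WNT16 had CpGs only from 500 to 1000 bp and WNT5B only from 3500 to 4000 bp. Past 2000 bp WNT9A had 1 CpG, at 97.1%. No CpG was measured from 1000 to 3000 bp in WNT4 or from 2000 to 4500 bp in WNT7A. The distances listed thus depend on where CpGs were measured. The DCBQ medians for the Frizzled bins were 1.09%, 1.20%, 1.67%, 29.1% and 91.7% in the same order. No test was made on these bins.

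**Figure D2:**
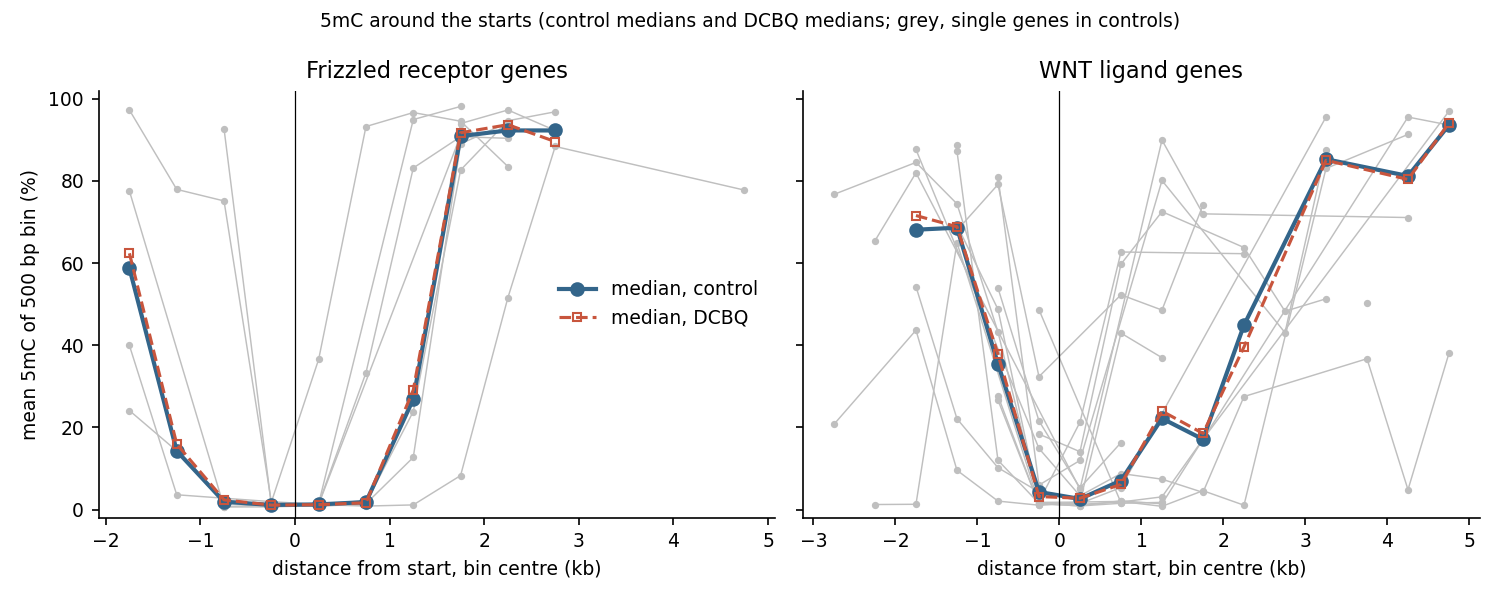
Mean 5mC per 500 bp bin (y axis, percent) against the distance of the bin centre from the start (x axis, kb) for Frizzled genes (left) and ligand genes (right). Grey lines are single genes in controls for bins with at least 3 CpGs, and the blue and red lines are medians over at least 3 genes in control and DCBQ samples, which run close together.

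Most ligand promoters were also low next to the start. Of the 25 listed member starts, 20 had measured CpGs in the 250 bases upstream, and 17 of these had a control mean below 20%. The remaining 3 were those of WNT3, WNT16 and the downstream start of WNT5A. WNT3A, a ligand of the beta-catenin branch, had 16.2% over the whole window but 1.56%, 1.20% and 2.17% in controls over the 33 CpGs of these 250 bases. In the same way WNT6 had 9.40% over the window and between 1.21% and 2.19% in controls nearest the start.

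The start window of WNT8A had the highest level in the set. Over 9 CpGs it had 88.8%, 88.6% and 88.6% in controls and 90.2%, 88.8% and 87.9% in DCBQ, and the groups overlapped. All 9 CpGs lay between 1500 and 1000 bp upstream, so the level next to the start was not measured. WNT3, which with WNT9B lies in an interval shared with the gene LRRC37A2, came next. Its window had 59.8%, 57.1% and 60.6% in controls and 60.2%, 55.0% and 57.5% in DCBQ over 65 CpGs. The DCBQ samples spread over the control range and below it, and the difference of -1.65 points (SE 1.63, limma adjusted p = 0.913) was about as large as its error. Methylation there fell towards the start, from 79.1% between 1000 and 500 bp upstream to 32.4% in the last 500 bp.

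WNT16, a ligand best known from cortical bone, varied more between samples at its start than any other member for both marks. The 11 CpGs, all among the capitals printed above, had 56.0%, 54.7% and 35.3% 5mC in controls 1 to 3 and 44.0%, 55.6% and 57.2% in DCBQ 1 to 3. The same CpGs had 2.79%, 1.71% and 13.4% 5hmC in controls and 15.2%, 5.57% and 6.94% in DCBQ. Control3 and DCBQ1 were thus the lowest samples of their groups in 5mC and the highest in 5hmC. 5hmC needs both kinds of library, and how they were combined is not given, so the marks may not be independent readings. Control3 had the lowest 5mC of the controls at 10 of the 11 CpGs and the highest 5hmC at 10, and DCBQ1 had the lowest 5mC of its group at 9 and the highest 5hmC at 7. These CpGs lie close together and can share reads, so they are not independent measurements, and WNT16 was looked at CpG by CpG after its window means were seen. The difference in 5mC was 3.62 points (SE 6.26, limma adjusted p = 0.952), and it was -3.07 points without Control3. Inside the gene, 13 CpGs from 500 to 1000 bp past the start had only 1.68% in controls.

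Genes with more than a single listed start showed that starts of the same ligand can differ. WNT5A, a ligand of the planar polarity branch, had 2.85%, 4.68% and 4.28% in controls at its upstream start over 48 CpGs, and 89.3%, 87.5% and 85.7% at the downstream start over 17 CpGs. In DCBQ the values were 3.97%, 2.80% and 2.96% upstream and 89.8%, 88.7% and 89.3% downstream. The levels of the 2 starts did not come near each other in any sample, whereas control and DCBQ overlapped at the upstream start. For WNT2B the upstream start had 5.79% ± 3.52 in controls and the downstream start 20.4% ± 0.63 (SD, n = 3), over 11 and 101 CpGs. In the 250 bases upstream of each start the order was the opposite, with 7.34% ± 3.77 at the upstream start over 8 CpGs and 1.03% ± 0.33 at the downstream start over 38. No CpG was measured at either start of WNT5B. The gene annotation of WNT5A, WNT8A, WNT9B, WNT10A, WNT16 and LRP5 reaches further upstream than the most upstream start listed, and those outer parts were not analysed here as starts.

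Gene bodies were more methylated than starts in nearly the whole set. A body was taken from 500 bp inside the start to the other gene end. The median control level was 60.8% over 18 ligands and 57.6% over 10 Frizzled receptors, and 80.6% over LRP5 and LRP6, against 72.2% over 16557 genes. The highest bodies were those of FZD2 (97.1% ± 0.18), FZD9 (93.7% ± 1.01) and FZD4 (92.5% ± 1.64, over 8 CpGs). The lowest were those of WNT16, WNT8B (2.96% ± 1.16 over 50 CpGs) and FZD6 (6.54% ± 0.44), followed by FZD8 (18.2% ± 0.37; SD, n = 3 for each). The 13 body CpGs of WNT16 and 35 of the 37 of FZD6 lay 500 to 1000 bp past the start or dense end. For WNT16 and FZD6 the body value therefore describes mainly CpGs close to the start window. In WNT8B no CpG was measured from the start to 5000 bp inside, so its value describes only a part further in. All 50 CpGs of WNT8B and 97.53% of the 81 CpGs of FZD6 had a 6-sample mean below 20%. Across the member spans, 48.63% of CpGs had a mean below 20%, 16.83% between 20% and 80%, and 34.54% of 80% or more, against 32.0%, 26.44% and 41.56% of all CpGs in the table.

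For the comparison of DCBQ with control, the 5mC differences in these genes were small and 0 members passed the test. Mean levels per gene were compared with limma on the untransformed percent scale, and p-values were adjusted by the Benjamini-Hochberg method over all genes measured. At an adjusted p below 0.05, 0 of 29 members were called at starts, 0 of 30 in bodies and 0 of 31 over the whole span, and 0% of all genes were called in each of these 3 comparisons. At an unadjusted p below 0.05, 1 of 29 members was counted at starts (6.65% of all genes), 1 of 30 in bodies (8.59%) and 3 of 31 over spans (9.12%).

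Members were lower in DCBQ at 18 of 29 starts, 19 of 30 bodies and 21 of 31 spans, beside 59.6%, 69.6% and 70% of all genes. The median member difference was -0.0761 points at starts and -0.125 in bodies, against -0.0973 and -0.389 over all genes. Over every CpG of the table, 5mC averaged 54.5% ± 0.15 (SD, n = 3) for controls and 54.1% ± 0.10 for DCBQ, a difference of -0.416 points. When each sample's mean over all CpGs was subtracted, 8 starts, 11 bodies and 11 spans of members were lower. The subtraction adds the same 0.416 points to every difference, so this drop follows from its construction. The 3 control and 3 DCBQ values did not overlap for 5 of 29 member starts, beside 11.9% of all genes, and for 6 of 30 bodies, beside 15.9%. These starts were those of WNT10B, FZD4, FZD5 and LRP5, lower in DCBQ, and WNT11, higher. The bodies were those of WNT3, WNT7B, WNT9A, FZD6 and FZD8, lower, and FZD3, higher.

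**Figure D3:**
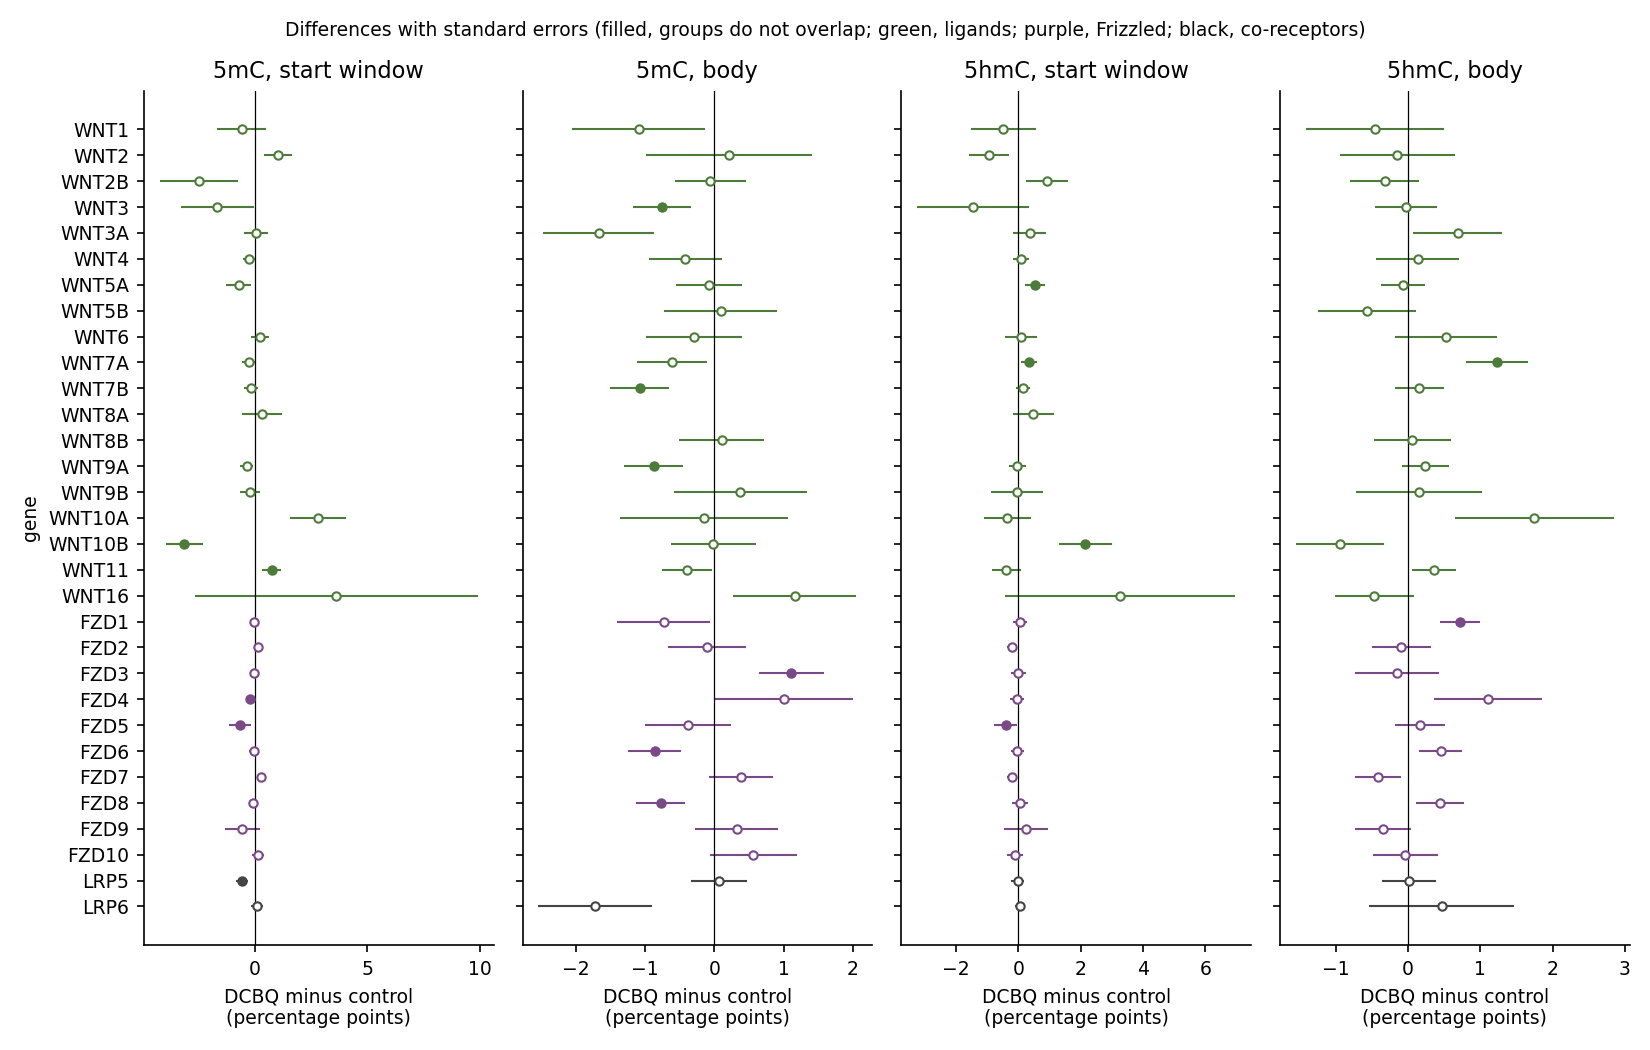
DCBQ minus control (x axis, percentage points) with the limma standard error for 5mC and 5hmC at start windows and in bodies of each member (y axis). Filled points are genes whose control and DCBQ samples do not overlap, green marks ligands, purple Frizzled receptors and black co-receptors; scales differ between panels, and most points lie within about 1 point of 0.

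WNT10B, a ligand that restrains fat cell formation, had the smallest p of the members at starts for both marks. As for WNT16, both marks may draw on the same libraries and may not be independent readings. Its CpG-dense gene end, chr12:48971235-48973235, held 14 CpGs with 11.2%, 9.84% and 8.42% 5mC in controls and 5.78%, 6.51% and 7.81% in DCBQ. All DCBQ samples lay below all controls, by a mean of -3.11 points (SE 0.82, limma adjusted p = 0.644). 5hmC in the same 14 CpGs was 1.33%, 1.10% and 3.52% in controls and 5.25%, 3.54% and 3.61% in DCBQ. The DCBQ samples lay above all controls, although Control3 and DCBQ2 were nearly equal, and the difference of 2.15 points had an SE of 0.85 (limma adjusted p = 0.957). The CpG furthest from the gene, at chr12:48972434 and 699 bp outside its end, was looked at on its own after the window values were seen. It had 53.8%, 87.5% and 68.8% 5mC in controls and 25.8%, 39.1% and 61.1% in DCBQ, and 11.5%, 0% and 0% 5hmC in controls and 29.0%, 25.0% and 0% in DCBQ, so that its own groups overlapped for both marks. Neither mark separated the groups in the other 13 CpGs. Their 5mC was 7.88%, 3.87% and 3.78% in controls and 4.24%, 4.01% and 3.71% in DCBQ, a difference of -1.19 points. Their 5hmC was 0.549%, 1.18% and 3.79% in controls and 3.42%, 1.89% and 3.89% in DCBQ, a difference of 1.23 points.

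WNT10A, a ligand required in teeth and skin appendages, went the other way at its start. Over 44 CpGs it had 13.3%, 16.1% and 13.1% in controls and 18.0%, 14.7% and 18.3% in DCBQ. DCBQ samples 1 and 3 were above all controls and DCBQ2 lay among them, with a difference of 2.83 points (SE 1.24, limma adjusted p = 0.765). The 22 measured CpGs printed above had 5.95%, 6.24% and 5.39% in controls and 9.14%, 6.70% and 9.58% in DCBQ, and these groups did not overlap. Among the 20 listed member starts measured in these 250 bases, 1 other did not overlap, that of WNT3A. It was lower in DCBQ, at 0.685%, 1.08% and 0.342%. Its CpG at chr1:228006938 had 30.8%, 13.3% and 16.7% in controls and 0% in every DCBQ sample. Without that CpG the WNT3A groups overlapped. The share of all genes that do not overlap is not given for these 250 bases, so the member count has no background. These bases were compared after the window values were seen and without a test.

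LRP5, a co-receptor known for its part in bone mass, had 6.67%, 6.65% and 6.23% at its start in controls and 5.71%, 6.07% and 6.03% in DCBQ over 110 CpGs. The groups did not overlap, with a difference of -0.575 points (SE 0.267, limma adjusted p = 0.781). WNT11, a ligand of non-canonical signalling in early development, had 8.82%, 8.81% and 7.66% in controls and 9.45%, 8.84% and 9.29% in DCBQ over 97 CpGs. Its DCBQ samples were higher, DCBQ2 by a narrow margin over Control1, with a difference of 0.762 points (SE 0.427, limma adjusted p = 0.834).

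WNT7B, which epithelia secrete towards the underlying stroma, had the smallest p in bodies and over the whole span. Its body, with 471 CpGs, had 70.8%, 70.3% and 70.7% 5mC in controls and 69.3%, 69.8% and 69.5% in DCBQ. Every DCBQ sample was below every control, by a mean of -1.08 points (SE 0.43, limma adjusted p = 0.581). Over the span the values were 58.3%, 57.9% and 58.2% against 57.0%, 57.5% and 57.2% (limma adjusted p = 0.515). Of all 1 kb tiles in member spans, 2 adjoining tiles of WNT7B were among the 3 with the smallest p. They lie between 15162 and 17161 bp from the dense gene end, inside the gene.

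The tile chr22:45960001-45961000 of WNT7B had 32.1%, 34.4% and 31.7% in controls and 25.4%, 23.1% and 26.7% in DCBQ over 12 CpGs. The neighbouring tile, chr22:45961001-45962000, had 71.8%, 67.2% and 73.8% in controls and 61.7%, 62.2% and 58.0% in DCBQ over 8 CpGs. Groups did not overlap in either, by -7.64 points (SE 1.43) and -10.3 points (SE 2.42), with a limma adjusted p = 0.714 and a limma adjusted p = 0.719. The third tile, chr1:228013001-228014000 in WNT3A, had 45.7%, 43.4% and 42.0% in controls and 35.2%, 24.3% and 32.5% in DCBQ over 14 CpGs (difference -13.0 points, SE 2.97, limma adjusted p = 0.719). Among the 269 tiles of member spans 23 had an unadjusted p below 0.05, or 8.55%, beside 6.2% of all 210465 tiles, and 0% of all tiles passed the adjusted threshold.

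**Figure D4:**
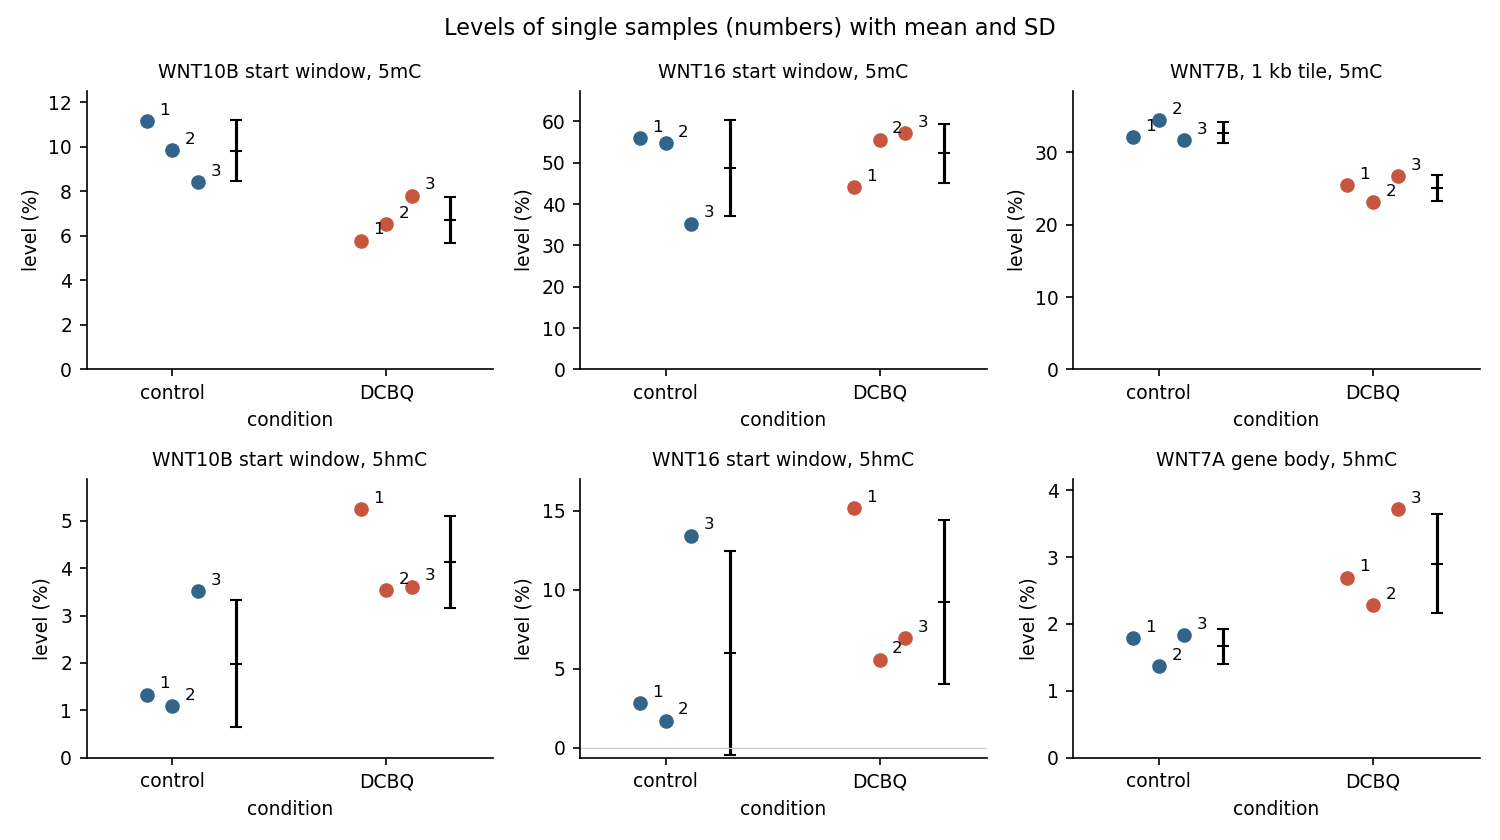
Levels in percent (y axes, different ranges) of control and DCBQ samples (x axes) for WNT10B and WNT16 start windows in both marks, for 1 kb tile of the WNT7B body in 5mC, and for the WNT7A body in 5hmC. Numbers are sample numbers, and black marks are the mean and SD of 3 samples. The groups do not overlap in the WNT10B, WNT7B and WNT7A panels, and in the WNT16 panels control 3 and DCBQ 1 stand away from the others.

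The remaining bodies with small p-values belonged to receptors. FZD3, a receptor of axon guidance and planar polarity, had 53.9%, 53.8% and 54.5% in controls and 55.0%, 55.8% and 54.8% in DCBQ over 50 CpGs. Its DCBQ samples were all higher, by 1.11 points (SE 0.47, limma adjusted p = 0.587). FZD6, which orients hair follicles, had 6.13%, 7.01% and 6.48% in controls and 5.84%, 6.11% and 5.10% in DCBQ over 37 CpGs. Of these CpGs, 35 lay 500 to 1000 bp from its dense end. FZD8 had 18.5%, 18.4% and 17.8% in controls and 17.0%, 17.6% and 17.7% in DCBQ over 207 CpGs. Both had all DCBQ samples lower, by -0.859 points (SE 0.387) and -0.772 points (SE 0.353), each with a limma adjusted p = 0.606.

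Over whole spans, WNT9A came second to WNT7B. WNT9A, a ligand of joint formation, had 43.9%, 44.0% and 44.0% in controls and 43.4%, 43.0% and 43.4% in DCBQ over 306 CpGs. The DCBQ samples were all lower, by a mean of -0.736 points (SE 0.276, limma adjusted p = 0.531). The span difference of FZD8 was the other with an unadjusted p below 0.05. Spans did not overlap for 8 of 31 members, beside 16.3% of all genes, with 6 lower (WNT3, WNT4, WNT7B, WNT9A, FZD6 and FZD8) and 2 higher (FZD3 and FZD7).

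5hmC was low throughout these genes and 0 members passed the test for it. Control start windows had a median of 2.02% over ligands and 0.865% over Frizzled receptors, and bodies had 3.04% and 2.05%. Across the 29 starts measured for both marks, 5hmC tended to be higher where 5mC was higher. The Pearson correlation of control levels was 0.611, which describes genes that share libraries and is no test. WNT8A, with the highest 5mC of these windows, went against it with a control mean of 1.565% 5hmC. By CpG, member-span CpGs with a mean 5mC between 20% and 80% had 6.24% to 7.28% 5hmC per sample, against 1.27% to 1.49% below 20% and 2.38% to 2.68% at 80% or more. Over all CpGs of the table the corresponding values were 6.21% to 6.81%, 1.51% to 1.58% and 2.83% to 3.20%. The 5hmC values were held at 0% or above and depth is unknown. How far scatter above 0% enters these means and the correlation was not tested. The start of WNT3 had the highest control mean of 5hmC among the member starts, with 9.27%, 7.67% and 6.87% in controls and 5.68%, 6.36% and 7.43% in DCBQ.

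At an adjusted p below 0.05, 0 of 29 starts, 0 of 30 bodies and 0 of 31 spans of members were called for 5hmC, and 0% of all genes in each comparison. At an unadjusted p below 0.05 these numbers were 1, 2 and 1, beside 4.87%, 5.36% and 5.16% of all genes. Members were lower in DCBQ at 15 of 29 starts, 13 of 30 bodies and 14 of 31 spans, beside 45.9%, 43.6% and 42.5% of all genes. The count at starts was 10 without control replicate 1 and 20 with sample means subtracted, of 29 in each case. The subtraction lowers every 5hmC difference by the same 0.0978 points, so the rise to 20 follows from its construction. The count lay between 13 and 15 under the other alternatives, which measured 25 to 29 starts. The groups did not overlap for 4 of 29 starts (9.93% of all genes), where FZD5 was lower and WNT5A, WNT7A and WNT10B were higher, and for 2 of 30 bodies (9.92%), both higher.

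Those bodies were WNT7A and FZD1. WNT7A, a ligand of limb and reproductive tract patterning, had 1.79%, 1.37% and 1.84% 5hmC in controls and 2.69%, 2.28% and 3.72% in DCBQ over 120 CpGs. The DCBQ samples were all higher, by 1.23 points (SE 0.43, limma adjusted p = 0.932), and its span showed the same with a difference of 0.872 points (SE 0.310, limma adjusted p = 0.963). FZD1 had 1.53%, 1.96% and 1.94% in controls and 2.41%, 2.58% and 2.58% in DCBQ over 83 CpGs. Its DCBQ samples were again all higher, by 0.714 points (SE 0.279, limma adjusted p = 0.932), and the span difference was 0.412 points (SE 0.208, limma adjusted p = 0.972). 5mC in the body was 52.6% ± 0.55 and 52.0% ± 0.51 in WNT7A and 57.4% ± 1.02 and 56.7% ± 0.61 in FZD1 (control and DCBQ, SD, n = 3), with overlapping samples in both.

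The other 5hmC values with the smallest p did not separate the groups except in WNT5A. The upstream WNT5A start had 1.20%, 1.01% and 1.24% in controls and 1.58%, 1.39% and 2.12% in DCBQ, with all DCBQ samples higher by a mean of 0.545 points (SE 0.319, limma adjusted p = 0.957). WNT2, a ligand of lung specification, had 3.25%, 2.54% and 3.84% in controls and 2.88%, 1.32% and 2.59% in DCBQ at its start. FZD7 had 0.655%, 0.898% and 0.588% in controls and 0.466%, 0.434% and 0.611% in DCBQ. Both were lower on average, by -0.944 points (SE 0.640) and -0.210 points (SE 0.147), and their groups overlapped. In bodies, WNT10A had 4.69%, 5.56% and 4.85% in controls and 8.85%, 6.12% and 5.37% in DCBQ, with DCBQ1 the highest sample. WNT10B had 4.16%, 4.91% and 3.82% against 4.22%, 3.41% and 2.44%, and both bodies had a limma adjusted p = 0.971.

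At single CpGs and in 5hmC tiles no member unit was called either. For 5mC, 0% of 3419211 CpGs passed an adjusted p below 0.05 with a difference of at least 10 points. The smallest p in member spans belonged to a CpG in the WNT3A body, chr1:228051118, with 85.7%, 83.3% and 83.3% in controls and 100% in all 3 DCBQ samples. Next came a CpG just outside the dense end of FZD10, chr12:130162070, with 10%, 16.7% and 16.7% in controls and 0% in DCBQ, and a CpG 974 bp past the upstream start of WNT5A, chr3:55486332, with 0% in controls and 6.2%, 5.6% and 6.5% in DCBQ. All 3 had a limma adjusted p = 0.85, and the depth behind these single values is unknown. For 5hmC, 0% of tiles passed, and 3.17e-05% of CpGs did, which is 1 CpG outside the members. The member tiles with the smallest p for 5hmC all lay in LRP5.

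The LRP5 tiles went in different directions. Tile chr11:68314001-68315000 had 2.41%, 2.22% and 1.99% in controls and 0.435%, 0% and 0.571% in DCBQ. Tile chr11:68415001-68416000 had 8.02%, 5.20% and 3.20% against 0.400%, 1.28% and 1.10%. Tile chr11:68317001-68318000, in contrast, had 6.43%, 2.31% and 0% against 10.4%, 10.1% and 13.4%. Each held 5 CpGs, the groups did not overlap in any, and the limma adjusted p was 0.973 for all. At 3 single CpGs, in LRP6 (chr12:12257441), WNT9B (chr17:46835336) and LRP5 (chr11:68374090), mean 5hmC was 26.8%, 27.3% and 24.2% in controls and 0% in every DCBQ sample (limma adjusted p = 0.786 for each). The controls were uneven, with 37.5%, 14.3% and 28.6% in LRP6, 47.9%, 15.0% and 19.0% in WNT9B, and 40.0%, 8.33% and 24.2% in LRP5. The depth behind these values is unknown.

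The pathway around the receptors gave 0 calls for either mark at starts or in bodies. Of 16 genes of the cytoplasmic relay, which carries the signal from Dishevelled to the beta-catenin destruction complex, 5mC was lower at 9 of 16 starts and 12 of 15 bodies. Named are the genes with the smallest p for 5mC in each list, here the scaffold APC2 and the relay protein DVL2, with body differences of -0.970 points (SE 0.427) and -0.988 points (SE 0.455). Nuclear effectors were lower at 7 of 11 starts and 10 of 12 bodies, with the BCL9-like co-activator BCL9L at -1.07 points (SE 0.41) and the PHD finger protein PYGO1 at 1.33 points (SE 0.49) in bodies. Planar polarity genes were lower at 3 of 8 starts and 7 of 8 bodies, with the cadherin CELSR3 at -1.26 points (SE 0.53) in the body and VANGL2 at 0.808 points (SE 0.344) at the start.

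Outside the cell, secreted antagonists were lower at 5 of 10 starts and 4 of 9 bodies. DKK2, which binds LRP5 and LRP6, had the smallest p of these with a start difference of -4.42 points (SE 1.44, limma adjusted p = 0.684) over 8 CpGs, and SFRP1, a Frizzled-like decoy, had -0.370 points (SE 0.181). The R-spondin axis was lower at 5 of 8 starts and 5 of 9 bodies, with RSPO1 at -1.07 points (SE 0.44) at the start and RSPO4 at -1.40 points (SE 0.78) in the body. Other WNT receptors were lower at 4 of 6 starts and 4 of 6 bodies, with start differences of 0.639 points (SE 0.241) in the DKK receptor KREMEN1 and -0.282 points (SE 0.170) in RYK. Ligand processing genes were lower at 1 of 4 starts and 1 of 4 bodies. Its genes with the smallest p were TRABD2A, a protease that cuts WNT proteins, at 1.44 points (SE 1.33) in the body, and NOTUM, which removes their lipid, at -0.678 points (SE 0.763) at the start.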

How the data were processed

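The deposited tables give a fraction per CpG (0 to 1), one table for 5mC and one for 5hmC, which the authors made from reduced representation bisulfite and oxidative bisulfite libraries. Reads were handled with cutadapt, BSMAP 2.90 and Trim Galore against hg38, per the submitters' processing notes. How both kinds of library were combined was not given in the sources. Per the deposited files' names, CpGs had at least 5 reads with strands merged. Depth is otherwise unknown, so no interval from read counts is given. No column belonged to another sample. Columns name the condition and number, not the library kind.

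Fractions were printed as percent. Means per start window, body, span and 1 kb tile (at least 5 CpGs) and single CpGs were compared, 3 DCBQ against 3 control samples, with limma 3.58.1 in R 4.3.3 (lmFit, eBayes with trend), adjusted over all units of a kind. For single CpGs a call also needed a difference of 10 points. Code was tested on simulated data. Gene positions, starts and sequences came from RefSeq, GRCh38.p14; window ends of 9 members without a listed start were chosen by CpG number. Plots used Python 3.11.15 with matplotlib 3.10.9. Members, lists and tests were chosen with earlier results of these data known. Per mark, values of each sample were given for the 4 smallest p-values at starts and in bodies, the 2 over spans, the 3 in tiles and in CpGs, and the 3 highest and lowest 5mC starts. In each pathway list the 2 genes with the smallest p for 5mC were named. Alternatives were another scale, variance model, centring, CpG minimum, window, CpGs of both tables, a replicate block and each replicate left out.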

Additional observations from a re-analysis of the deposited data

How the results depend on the processing

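Depth is unknown, 3 samples per condition limit the precision, and CpGs of a window can share reads. With each sample's mean subtracted, which raised every 5mC difference by 0.416 points, members lower in DCBQ numbered 8 of 29 starts, 11 of 30 bodies and 11 of 31 spans. With that centring the start differences of FZD1 and FZD4 turned to 0.396 and 0.220 points. FZD1, close to 0 throughout, also turned to 0.0478 with CpGs of both tables, 0.0181 in a window of 1000 bp each side, 0.069 without control replicate 2, and 0.0338 and 0.0038 without DCBQ replicates 1 and 2. FZD4 turned to 0.0848 in the window from 250 bp before to 50 bp after the start. Leaving out single replicates, the start difference of FZD1 ranged from -0.121 to 0.069, that of WNT16 from -3.07 (without control replicate 3) to 7.75, and that of WNT8A from -0.294 (without DCBQ replicate 1) to 0.85. The causes were not tested. Over all genes, 1 start was called for 5hmC on the arcsine scale. The 1 CpG called for 5hmC became 0 on the arcsine scale and without the variance trend, 4 with centring, and 0 in each fit with a replicate left out. The members named kept an adjusted p of 0.328 or more under the alternatives fitted.

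Replicate numbers are shared between the conditions in the labels, but same-numbered samples did not deviate together: correlations ranged from -0.045 to 0.016, and between 0 and 3 of 6 samples correlated best with their own number. With the replicate block, 0 CpGs were called for 5hmC, and it changed no other call.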
